A study of Mus musculus with 6 samples.

Results

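The macrophage lectins and scavenger receptors examined here were 10 genes chosen by symbol, namely Mrc1, Cd163, Msr1, Marco, Clec10a, Mgl2, Clec4n, Clec7a, Clec4d and Clec4e. Of these, 9 were found in the list of 32285 genes, and Clec7a was not analysed here. Their unique molecular identifier (UMI) counts, which count each captured transcript once, were read from single-cell RNA libraries of orthotopic pancreatic tumours. The tumours grew in C57BL/6 mice, aged 6 to 8 weeks at injection, from KPC cells placed in the pancreas, and were collected 4 weeks later. KPC cells are a line from a mouse pancreatic cancer model and carried either a control construct (OE-Vector) or overexpressed mouse MLKL (OE-MLKL), the pseudokinase that breaks the membrane in necroptosis. The host immune cells carried no construct. The labels name 3 samples per group. The first OE-Vector library and all 3 OE-MLKL libraries were analysed. OE-Vector 2 and 3 were not analysed here. Each library came from a separate tumour.

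Pattern recognition receptors of these families let phagocytes bind sugars, lipids, microbes and debris. Mrc1 encodes the mannose receptor CD206, and Cd163 encodes the receptor for haemoglobin bound to haptoglobin. Both are widely used as markers of resident or alternatively activated macrophages. Msr1 and Marco are class A scavenger receptors that take up modified lipoproteins and particles. Clec10a and Mgl2 are paralogous lectins for galactose and N-acetylgalactosamine, used as markers of macrophages and of type 2 dendritic cells. Clec4n (Dectin-2), Clec4d and Clec4e (Mincle) are lectins that signal through the adaptor Fcer1g and the kinase Syk. Mincle also binds Sap130, a nuclear protein released by dying cells.

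Several of these genes are neighbours. On GRCm38 chromosome 6, Clec4d (123262111 to 123275265) ended 6.52 kb before Clec4e (123281789 to 123289870), and Clec4n (123229843 to 123247021) ended 15.1 kb before Clec4d. On chromosome 11, Mgl2 (70130329 to 70137550) and Clec10a (70156197 to 70170834) were 18.6 kb apart. These 2 paralogs are alike in sequence, so the division of reads between them is uncertain. Promoter windows of 250 bases before to 50 after the start site were in the RefSeq table (GRCm38.p6) for 6 of the 9 genes. The 5 windows below belong to the genes on which the results turn. They were searched on both strands for GAGGAA (a core of PU.1 sites, in 28.3% of 32851 promoter windows), TGANTCA (AP-1, 7.81%) and TTGCNNAA (C/EBP, 10.8%). Capitals mark the matches on either strand, and no matches of different motifs overlapped. The first pair are the neighbouring lectins that were highest in neutrophils, chr6:123261857-123262156 on the plus strand and chr6:123289822-123290121 on the minus strand. The others are genes of macrophages and dendritic cells, chr2:14229164-14229463, chr6:124304401-124304700 and chr11:70130107-70130406, all on the plus strand.
Clec4d: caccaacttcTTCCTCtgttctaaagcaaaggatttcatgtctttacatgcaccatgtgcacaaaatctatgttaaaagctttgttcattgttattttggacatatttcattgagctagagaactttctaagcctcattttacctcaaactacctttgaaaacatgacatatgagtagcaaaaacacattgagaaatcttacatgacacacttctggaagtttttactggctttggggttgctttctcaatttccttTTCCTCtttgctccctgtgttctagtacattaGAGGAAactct
Clec4e: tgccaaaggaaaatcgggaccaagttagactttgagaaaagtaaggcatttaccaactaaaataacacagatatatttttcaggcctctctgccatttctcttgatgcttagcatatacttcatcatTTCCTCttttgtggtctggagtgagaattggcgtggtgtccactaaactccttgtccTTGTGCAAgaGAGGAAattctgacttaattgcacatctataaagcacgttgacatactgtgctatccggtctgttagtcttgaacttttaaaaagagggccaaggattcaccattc
Mrc1: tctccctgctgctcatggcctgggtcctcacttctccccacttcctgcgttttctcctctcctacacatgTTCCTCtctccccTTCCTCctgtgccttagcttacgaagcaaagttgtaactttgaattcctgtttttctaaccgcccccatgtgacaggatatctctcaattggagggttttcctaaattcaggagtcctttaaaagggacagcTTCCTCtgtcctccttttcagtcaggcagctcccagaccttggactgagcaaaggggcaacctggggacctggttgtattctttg
Cd163: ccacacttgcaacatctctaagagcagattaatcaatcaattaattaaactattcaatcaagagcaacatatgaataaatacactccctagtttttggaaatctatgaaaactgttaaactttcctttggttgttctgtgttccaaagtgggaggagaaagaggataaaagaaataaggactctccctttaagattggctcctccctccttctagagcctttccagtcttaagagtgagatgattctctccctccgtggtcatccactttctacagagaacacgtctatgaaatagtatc
Mgl2: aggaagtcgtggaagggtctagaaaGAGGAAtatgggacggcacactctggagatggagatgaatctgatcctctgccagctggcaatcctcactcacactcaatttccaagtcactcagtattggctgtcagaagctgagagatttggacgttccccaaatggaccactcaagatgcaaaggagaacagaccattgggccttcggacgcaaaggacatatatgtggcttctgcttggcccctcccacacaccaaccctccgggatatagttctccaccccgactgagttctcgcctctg

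GAGGAA or its reverse complement was found 3 times in the Clec4d window, 2 times in that of Clec4e, 3 times in that of Mrc1 and 1 time in that of Mgl2. The Clec4e window also held 1 match of TTGCNNAA. The Cd163 window held none of the 3 motifs, and AP-1 was matched in none of the 5. These matches describe the letters only.

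Cells were assigned by marker genes that included none of the receptors. The depth was 150591289 to 169978362 UMIs per library, and 13489 to 18808 cells per library passed the filters. Values listed in fours below follow the order OE-Vector 1, OE-MLKL 1, OE-MLKL 2, OE-MLKL 3. Macrophages numbered 1700, 2330, 2068 and 2797. Neutrophils numbered 5729, 4790, 7051 and 5891. The other classes were small, with 107, 18, 30 and 21 monocytes and 116, 37, 52 and 177 dendritic cells. The summed macrophage markers reached 33.3 to 51.8 per 10000 UMIs in the monocytes against 334 to 421 in the macrophages, and the part of macrophage RNA in the monocyte values was not tested. T cells served as a class that should lack the receptors. Between 55 and 90 cell barcodes were shared by each pair of libraries.

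The libraries were not cleanly separated by label. Across 8156 genes the macrophage profiles of OE-MLKL 1 and 2 correlated at r = 0.965 and those of OE-MLKL 3 and OE-Vector 1 at 0.953, against 0.919 for OE-MLKL 1 and 3, 0.951 for OE-MLKL 2 and 3 and 0.948 for OE-Vector 1 and OE-MLKL 2. In neutrophils the same pairs gave 0.974, 0.950, 0.893, 0.927 and 0.906 across 7405 genes. OE-Vector 1 and OE-MLKL 1 gave 0.917 in macrophages and 0.878 in neutrophils, the lowest in each class. Mlkl itself was at 16.8 UMIs per 1000000 UMIs of the class (CPM) in cancer cells of OE-Vector 1 and at 13.9 ± 5.78 (SD, n = 3) in those of the libraries labelled OE-MLKL, so the 3′ counts did not separate the groups. Group comparisons are given with all libraries, and for the receptors also without each OE-MLKL library in turn. Such fits leave 1 residual degree of freedom, and OE-MLKL 3 is the library often nearest to OE-Vector 1, so that leaving it out favours a difference.

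Across the 4 classes the receptors fell into 3 patterns. Mrc1, Cd163, Msr1 and Marco had their highest mean level in macrophages, Clec10a and Mgl2 in dendritic cells, and Clec4n, Clec4d and Clec4e in neutrophils. For Clec10a this order rested on OE-Vector 1, since in OE-MLKL 1 and 2 macrophages held more than dendritic cells, and without OE-Vector 1 the log2 difference of macrophages was 0.72 (adjusted p = 0.23). For Clec4n macrophages held more than neutrophils in OE-MLKL 1 and 2. Msr1 was higher in monocytes than in macrophages in OE-MLKL 1 and 2, and Mgl2 was higher in monocytes than in dendritic cells in OE-MLKL 1 and 3, on few monocyte UMIs. The mean over 4 libraries covered a wide range within macrophages, from 699 ± 242 CPM for Mrc1 to 13.2 ± 18.2 CPM for Mgl2 (SD, n = 4). One end of each transcript is counted in this 3′ assay, so levels were compared between genes without a correction for length.

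**Figure D1:**
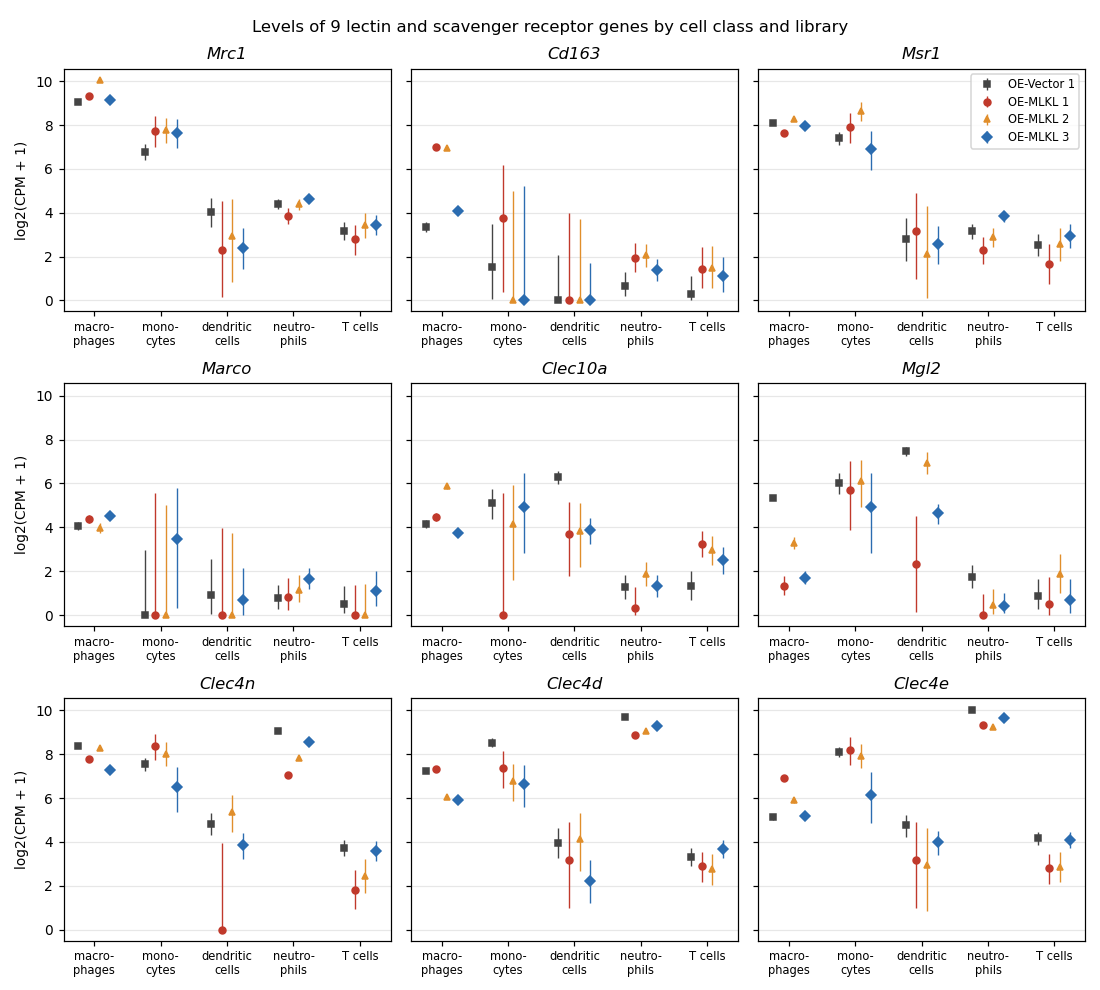
Levels of the 9 genes, as log2(CPM + 1), in macrophages, monocytes, dendritic cells, neutrophils and T cells of the 4 libraries; each point is the summed count of 1 library and class, and bars are exact 95% Poisson intervals for counting error. Mrc1 and Msr1 were high in macrophages and monocytes, Clec4n, Clec4d and Clec4e were high in neutrophils, and Cd163 and Mgl2 varied most between libraries within macrophages.

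Mrc1, the mannose receptor, was the most abundant of the 9 in macrophages. Its level there was 535, 644, 1056 and 561 CPM. In monocytes it was 108, 214, 219 and 199 CPM, in neutrophils 20.3, 13.5, 19.99 and 23.9 CPM, and in dendritic cells 15.6, 3.97, 6.65 and 4.30 CPM. The monocyte UMIs came from 24, 9, 8 and 2 cells. The macrophages lay above the monocytes and the monocytes above the neutrophils with no overlap, whereas neutrophils and dendritic cells overlapped. With a term for the library, macrophages exceeded monocytes by a log2 fold change of 2.22 ± 0.29 (SE, adjusted p = 1.81e-05, edgeR quasi-likelihood test). The difference was 6.29 ± 0.36 from dendritic cells (adjusted p = 1.23e-11) and 4.94 ± 0.28 from neutrophils (adjusted p = 3.65e-12). T cells held 5.97 to 9.95 CPM, so the dendritic cell level was above that of T cells in 1 of 4 libraries.

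Msr1, which binds modified lipoproteins, was at 273, 200, 306 and 251 CPM in macrophages and at 169, 240, 396 and 119 CPM in monocytes. These classes overlapped, and the fitted difference of 0.42 ± 0.28 on the log2 scale did not pass the test (adjusted p = 0.40). Dendritic cells held 6.05, 7.94, 3.33 and 4.91 CPM, and macrophages exceeded them by 5.60 ± 0.40 (adjusted p = 4.37e-10). Neutrophils held 7.94, 3.89, 6.37 and 13.4 CPM and were 4.81 ± 0.29 below macrophages on the log2 scale (adjusted p = 1.02e-11). Marco was sparse, at 15.7, 19.7, 14.8 and 21.8 CPM in macrophages, with 1 UMI in all monocytes, 2 in all dendritic cells and 34 in all neutrophils. The neutrophils held 0.697 to 2.17 CPM, below the macrophages of each library. Both class A receptors kept a narrow range over the 4 macrophage sums, unlike the genes that follow.

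Cd163, the haemoglobin scavenger receptor, varied widely between the libraries in macrophages. Macrophages held 9.13 CPM in OE-Vector 1, 126 in OE-MLKL 1, 122 in OE-MLKL 2 and 16.1 in OE-MLKL 3, so 2 libraries stood far above the other 2. Monocytes held 2 UMIs and dendritic cells 0 UMIs in all. A count of 0 allows up to 2.59, 11.9, 9.98 and 1.84 CPM in the dendritic cells (3 UMIs), below the macrophages of each library. Neutrophils held 0.557 to 3.18 CPM, below the macrophages of each library.

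Mgl2 and Clec10a, the galactose lectins, were counted in dendritic cells, macrophages and a few monocytes. Mgl2 was at 177, 3.97, 123 and 24.0 CPM in dendritic cells and at 64.3, 50.4, 67.3 and 29.8 CPM in monocytes, on a total of 282 and 50 UMIs. The monocyte UMIs came from 6, 1, 1 and 2 cells, and these classes did not differ by the test (adjusted p = 0.10). In macrophages it was at 40.0, 1.497, 8.81 and 2.27 CPM. In each of the 4 libraries the dendritic cell value was the higher, though in OE-MLKL 1 it rested on 1 UMI. The log2 difference of macrophages from dendritic cells was −2.91 ± 0.35 (adjusted p = 9.34e-07, edgeR quasi-likelihood test). That from monocytes was −1.69 ± 0.51 (adjusted p = 0.036), but a stricter marker gate, which left 8 to 115 monocytes per library, turned this to a macrophage excess of 2.61 (adjusted p = 0.016). It was also lost without OE-MLKL 1 (adjusted p = 0.062), OE-MLKL 2 (0.17) or OE-MLKL 3 (0.12). Clec10a was at 76.9, 11.9, 13.3 and 13.5 CPM in dendritic cells and at 16.8, 21.3, 58.0 and 12.3 CPM in macrophages. In monocytes it was at 33.0, 0, 16.8 and 29.8 CPM, on 18, 0, 2 and 3 UMIs. Dendritic cells and macrophages overlapped and did not differ by the test (log2 difference for macrophages −0.44 ± 0.44, adjusted p = 0.49). T cells held up to 8.53 CPM of Clec10a, and neutrophils lay at or below T cells for Clec10a in all 4 libraries.

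The dendritic cell gate held mainly type 1 and mature cells. Type 1 cells, marked by Xcr1 and Clec9a, numbered 55, 33, 34 and 143, and mature cells, marked by Ccr7 and Ccl22, numbered 49, 2, 15 and 26. Type 2 cells, marked by Cd209a, numbered 3, 0, 0 and 1. Cd209a was the only type 2 marker among the 13 of the gate, which needed 3 distinct markers, so type 2 cells could be missed. The dendritic cell levels and group differences therefore describe mainly the other subsets. Mgl2 and Clec10a are known for type 2 cells. The 3 such cells of OE-Vector 1 held Mgl2 at 1093 CPM and Clec10a at 497 CPM. In type 1 cells Mgl2 was at 187, 4.30, 103 and 23.7 CPM and Clec10a at 59.6, 12.9, 8.60 and 10.5 CPM.

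Clec4e, which encodes Mincle, and Clec4d, its partner receptor, had their highest levels in neutrophils. Clec4e was at 1021, 650, 597 and 802 CPM in neutrophils, 275, 290, 244 and 69.5 in monocytes, 33.9, 120, 58.9 and 35.1 in macrophages and 25.9, 7.94, 6.65 and 14.7 in dendritic cells. Neutrophils lay above every other class with no overlap. The log2 difference of macrophages was −3.93 ± 0.35 from neutrophils (adjusted p = 4.73e-09) and −1.70 ± 0.38 from monocytes (adjusted p = 0.0052). The latter did not pass without OE-Vector 1 (−1.40, adjusted p = 0.051). Clec4d followed the same order, with 836, 472, 534 and 624 CPM in neutrophils, 369, 164, 109 and 99.3 in monocytes, 149, 159, 65.2 and 58.8 in macrophages and 14.7, 7.94, 16.6 and 3.69 in dendritic cells. Macrophages differed from neutrophils by −2.81 ± 0.26 (adjusted p = 7.45e-09), whereas the difference of macrophages from monocytes, −0.64 ± 0.30, did not pass the test (adjusted p = 0.20).

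After each cell was thinned to 500 UMIs, a Clec4e UMI was present in 32.4%, 23.7%, 21.8% and 29.3% of neutrophils and in 0.370% to 1.06% of T cells. The unthinned median depth of neutrophils was 1168, 723, 750 and 1358 UMIs. Barcodes with at most 100 UMIs, which mostly hold free RNA, carried Clec4e at 170, 69.8, 73.4 and 160 CPM. That exceeded the macrophage level in all libraries but OE-MLKL 1, and the part of free RNA in the macrophage values was not tested. T cells held Clec4e at 5.97 to 17.1 CPM, below macrophages in each library.

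Clec4n, which encodes Dectin-2, was spread more evenly. It was at 531, 134, 227 and 381 CPM in neutrophils, 332, 219, 307 and 154 in macrophages and 185, 328, 261 and 89.4 in monocytes. These 3 classes overlapped, and macrophages and neutrophils did not differ by the test (log2 difference −0.49 ± 0.33, adjusted p = 0.19). Dendritic cells were lower, at 27.7, 0, 39.9 and 13.5 CPM, 3.70 ± 0.44 below macrophages on the log2 scale (adjusted p = 8.40e-07). Of the 3 lectin neighbours on chromosome 6, Clec4d and Clec4e passed the test between neutrophils and macrophages and Clec4n did not.

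Counted over all 6 class pairs, macrophages and dendritic cells differed in 8 of the 9 genes, 7 of them higher in macrophages, where 35.9% of all genes tested passed. Macrophages and neutrophils differed in 8, 6 higher in macrophages, beside 69.7% of all genes. Between macrophages and monocytes 5 passed, 3 higher in macrophages (10.7% of all genes), and 3 passed without OE-Vector 1. Between monocytes and dendritic cells 5 passed, all higher in monocytes (18.4%). Monocytes and neutrophils differed in 6, 4 higher in monocytes (31.9%), and dendritic cells and neutrophils in 7, 2 higher in dendritic cells (60.7%). The 7 include Cd163, with 0 UMIs in dendritic cells against 47 in neutrophils, at 2.05 CPM. In each library the neutrophil level lay below the CPM that 3 UMIs would give in dendritic cells, so no single library shows this difference. Neutrophils held Cd163 at 1.37 to 2.65 times the level of T cells. Cd163 and Marco reached the low-count filter only through their macrophage level, so their 2 calls in each of the 3 macrophage comparisons describe how they entered the test. Without them 1 receptor was higher in macrophages than in monocytes (Mrc1), 5 than in dendritic cells and 4 than in neutrophils (Mrc1, Msr1, Clec10a and Mgl2). Clec10a and Mgl2, with 39 and 22 UMIs in all neutrophils, reached the filter without the class in which they were higher. So did the other receptors called between classes.

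Macrophages themselves were divided by UMIs of other genes, and each receptor was compared within each library. Folr2 and Lyve1 are markers of resident, perivascular macrophages. Cd163 was at 13.6, 260.5, 227 and 52.6 CPM in the 342 to 904 macrophages per library with a UMI of Folr2 or Lyve1, against 3.28, 100.3, 74.5 and 7.39 in the others. It was higher with these markers in 4 of 4 libraries, by 2.60-fold to 7.11-fold. Clec10a was higher by 2.02-fold to 6.51-fold, Marco by 1.51-fold to 6.01-fold and Mrc1 by 1.29-fold to 1.51-fold, each in 4 of 4 libraries. Clec4d (1.02-fold to 1.72-fold) and Msr1 (1.09-fold to 1.47-fold) were higher in 4 of 4 as well, by less. Mgl2 was higher in 2. Clec4e was higher with these markers in 1 library and Clec4n in 2, by at most 1.11-fold. For 4 paired libraries an exact two-sided sign test cannot give a p below 0.125. Cells with Folr2 or Lyve1 were deeper in each library, with medians of 4570.5 to 9019.5 UMIs against 4094.5 to 8115.5.

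A second division used Arg1, an arginine-consuming enzyme of hypoxic and alternatively activated macrophages, and Cx3cr1, the fractalkine receptor. Marco, with a UMI in 34, 47, 28 and 66 macrophages, was higher with Arg1 than with Cx3cr1. It was at 72.6, 24.0, 59.3 and 236 CPM in cells with Arg1 and without Cx3cr1, against 1.18, 0, 0.539 and 3.96 CPM in cells with Cx3cr1 and without Arg1. Clec4d, at 486, 210, 95.5 and 228 against 41.0, 92.5, 51.8 and 29.1 CPM, was 1.84-fold to 11.9-fold higher with Arg1. Clec4e was 1.52-fold to 3.004-fold and Msr1 1.26-fold to 3.06-fold higher, in 4 of 4 libraries each. Clec10a (1.06-fold to 9.28-fold) was higher with Arg1 in 4 of 4 libraries too. Mgl2 was 1.17-fold to 7.78-fold higher in the 3 libraries with UMIs in both subsets and had 5 and 0 UMIs in OE-MLKL 1. Cd163 was higher in 3 of 4, from 0.606 to 12.2 times, and Clec4n in 2. Mrc1 did not follow, at 0.749 to 1.001 times the level of the Cx3cr1 cells. The cells with Arg1 were deeper in each library, with medians of 4651 to 8123 UMIs against 3842.5 to 7529. The shares of these cells differed between libraries. Cells with neither gene made up 909 of the 2330 macrophages of OE-MLKL 1, 70 of those of OE-Vector 1, 158 of those of OE-MLKL 2 and 149 of those of OE-MLKL 3.

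**Figure D2:**
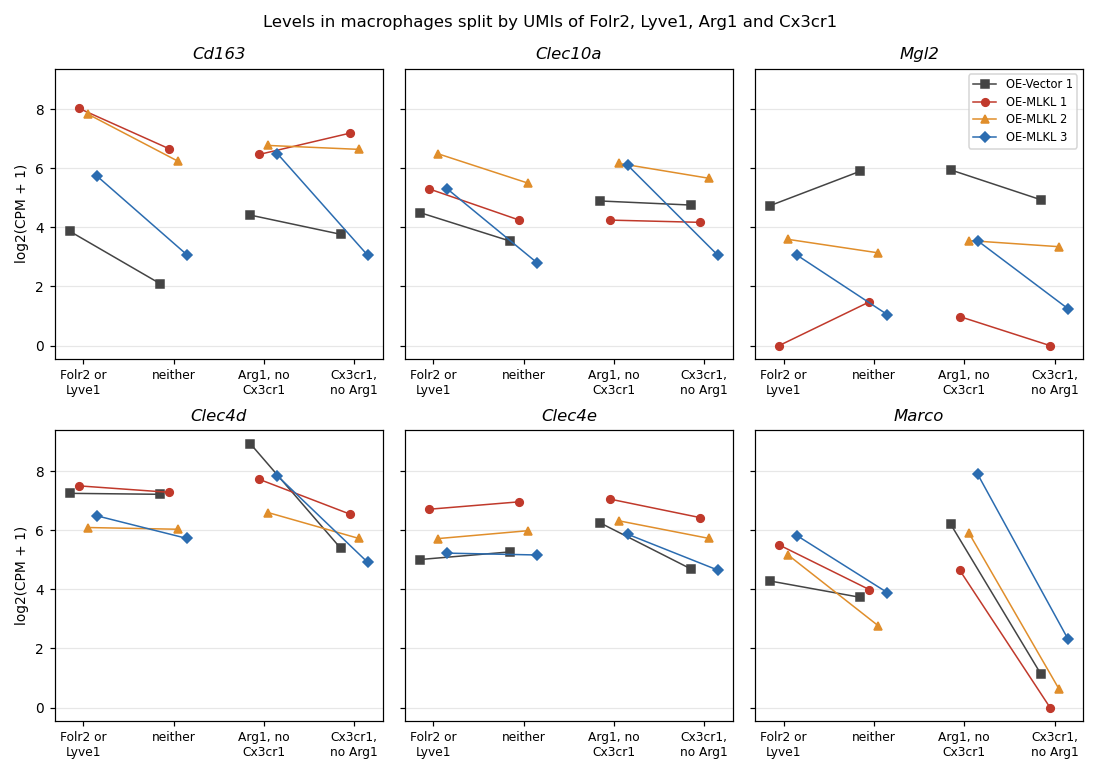
Levels of 6 of the genes, as log2(CPM + 1), in macrophages split by UMIs of Folr2 or Lyve1 (left pair in each panel) and of Arg1 and Cx3cr1 (right pair); each line joins the 2 subsets of 1 library. Cd163, Clec10a and Marco fell from Folr2 or Lyve1 cells to the others in all 4 libraries, and Marco, Clec4d and Clec4e fell from Arg1 to Cx3cr1 cells in all 4.

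The libraries labelled OE-MLKL were then compared with OE-Vector 1 in each class. No receptor passed the threshold in any of the 4 classes with all 4 libraries. In macrophages 0 of 9 passed, beside 0.0298% of 13414 genes tested, while 2 had an unadjusted p below 0.05 and DESeq2 called 1. In monocytes 0 of 5 tested passed (2.48% of 2780 genes), with 1 at an unadjusted p below 0.05 and 0 by DESeq2. In dendritic cells 0 of 6 tested passed (0.0122% of 8228 genes), with 2 and 0. In neutrophils 0 of 9 passed (0% of 12586 genes), with 3 and 0. The spread comes from the 3 OE-MLKL libraries alone, with 2 residual degrees of freedom, and OE-Vector 1 is assumed to vary like them.

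**Figure D3:**
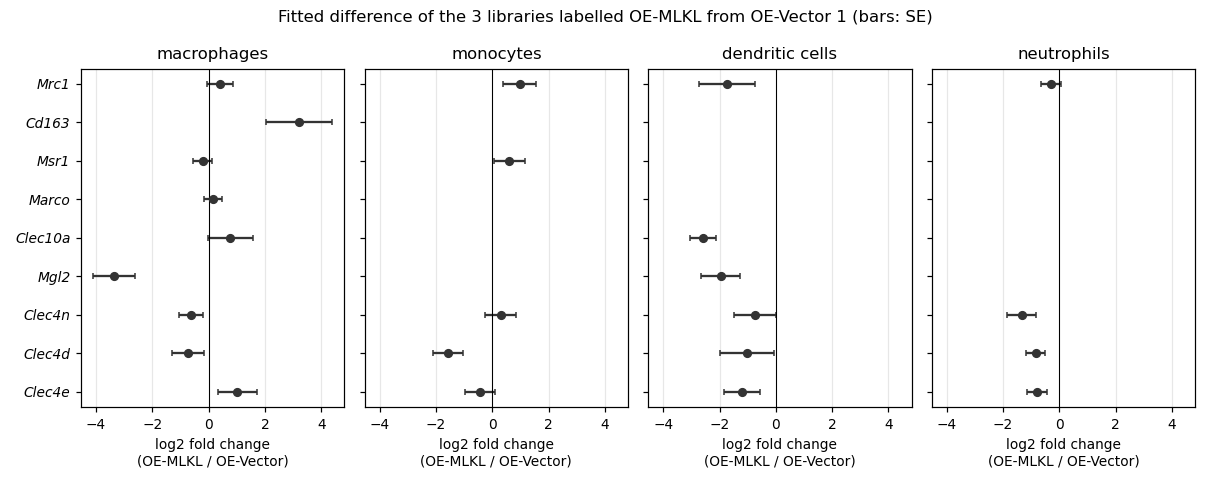
Fitted log2 fold changes of the 3 libraries labelled OE-MLKL over OE-Vector 1 in 4 classes, with SE bars from the edgeR quasi-likelihood fit; genes without enough UMIs in a class have no point. In macrophages Cd163 lies at 3.21 and Mgl2 at −3.37, and in neutrophils Clec4n, Clec4d and Clec4e lie below 0, but no point passed an adjusted p of 0.05.

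In macrophages the widest differences were those of Cd163 and Mgl2. Cd163 was at 88.1 ± 62.4 CPM in the OE-MLKL libraries (SD, n = 3) against 9.13 CPM, a log2 fold change of 3.21 ± 1.19 (adjusted p = 0.83). All 3 libraries lay above OE-Vector 1, yet OE-MLKL 3 was only slightly so. At 500 UMIs per cell, 0.558%, 5.34%, 5.23% and 0.829% of macrophages had a Cd163 UMI. Without OE-MLKL 1 it passed (2.82, adjusted p = 1.93e-07) together with Mgl2 and Clec4d (−1.40, adjusted p = 0.030), beside 1.31% of 13537 genes. Without OE-MLKL 3 it was the 1 receptor that passed (3.72, adjusted p = 0.0035), beside 1.09% of 12888 genes. It did not pass without OE-MLKL 2 (2.93, adjusted p = 0.9997), where 0.0366% of 13662 genes did. Free RNA had Cd163 at 5.23, 18.5, 21.9 and 6.13 CPM and T cells at 0.211 to 1.81 CPM.

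Mgl2 went the other way, at 4.19 ± 4.02 CPM (SD, n = 3) against 40.0 CPM in OE-Vector 1, with all 3 OE-MLKL libraries below. The log2 fold change was −3.37 ± 0.74 (adjusted p = 0.60 by edgeR, 0.0074 by DESeq2). It passed without OE-MLKL 1 (−3.01, adjusted p = 8.25e-13) and without OE-MLKL 2 (−4.50, adjusted p = 0.032), and not without OE-MLKL 3 (−3.02, adjusted p = 0.077). OE-Vector 1 was also the highest in every macrophage subset of the Arg1 and Cx3cr1 division. For Mgl2 OE-MLKL 3 lay with the other OE-MLKL libraries, and for Cd163 it lay nearer OE-Vector 1.

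The remaining macrophage differences were smaller. Clec4e had a log2 fold change of 1.01 ± 0.69 (adjusted p = 0.905). The log2 fold changes were 0.41 ± 0.47 for Mrc1, 0.77 ± 0.80 for Clec10a, −0.73 ± 0.58 for Clec4d and −0.63 ± 0.43 for Clec4n, with adjusted p from 0.905 to 0.932. Msr1 (−0.21 ± 0.34) and Marco (0.16 ± 0.32) were nearest to 0. The direction for Clec10a rested on OE-MLKL 2, without which it was −0.086. The OE-MLKL libraries lay on both sides of OE-Vector 1 for Clec10a, Clec4d, Msr1 and Marco, all above it for Mrc1 and Clec4e and all below it for Clec4n.

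In dendritic cells the galactose lectins had the widest differences, and neither passed with all libraries. Clec10a was at 12.9 ± 0.866 CPM (SD, n = 3) against 76.9 CPM, with 29 and 89 UMIs, and its log2 fold change of −2.58 ± 0.46 lay just outside the threshold (adjusted p = 0.057). Under the alternatives of scaling, filter, gate and library its adjusted p ranged from 4.23e-04 to 0.9997. With all 4 libraries Clec10a reached the low-count filter only through OE-Vector 1, where it was high. Its passes in alternatives that keep all 4 libraries are therefore not counted. Mgl2 was at 50.3 ± 63.8 CPM against 177 CPM (log2 fold change −1.96 ± 0.69, adjusted p = 0.83). The 3 OE-MLKL values of Clec10a were close together, whereas those of Mgl2 ran from 3.97 to 123 CPM. Clec10a passed without OE-MLKL 1 (adjusted p = 0.0017, 0.272% of 9188 genes) and Mgl2 without OE-MLKL 2 (−3.35, adjusted p = 0.047, 0.0221% of 9062 genes) or OE-MLKL 3 (−1.38, adjusted p = 0.018, 2.89% of 5054 genes). Without OE-MLKL 3 Clec10a, with 89, 3 and 4 UMIs, entered the test only through OE-Vector 1, where it was high, so no call is given for it there. Plasmacytoid cells, marked by Siglech, held Clec10a at 521 CPM in OE-Vector 1 and numbered 9, 1, 2 and 6, and the part of such subsets in the difference was not tested. Within type 1 cells alone OE-Vector 1 was also the highest for both genes.

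In neutrophils Clec4n, Clec4d and Clec4e were highest in OE-Vector 1, next in OE-MLKL 3 and lower in OE-MLKL 1 and 2. The log2 fold changes were −1.33 ± 0.52 for Clec4n (adjusted p = 0.63), −0.84 ± 0.34 for Clec4d (adjusted p = 0.63) and −0.80 ± 0.36 for Clec4e (adjusted p = 0.64). The neutrophils of OE-MLKL 1 and 2 were also the shallowest, and free RNA had less of the 3 genes in those libraries. At 500 UMIs per cell the order of libraries was kept for Clec4n, with a UMI in 18.6%, 5.92%, 9.88% and 14.9% of neutrophils. Without OE-MLKL 3, where 18.7% of 12070 genes passed, 3 of these lectins did, namely Clec4n (−1.75, adjusted p = 4.17e-05), Clec4d (−0.92, adjusted p = 0.018) and Clec4e (−0.90, adjusted p = 0.025). Mgl2, with 17, 0 and 2 UMIs, entered that test only through OE-Vector 1, where it was high, and is not counted. Without OE-MLKL 1 or 2 no receptor passed, beside 0% of 12687 and 0.0316% of 12657 genes.

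The monocyte values rest on 18 to 30 cells in each OE-MLKL library. The summed monocyte markers were at 63.9, 30.6, 34.3 and 32.6 per 10000 UMIs, and 11 of 107, 5 of 18, 8 of 30 and 5 of 21 cells lay within 1.5-fold above the limit of the gate. The gated cells thus differed in marker level along with the label, and the part of this in the differences was not tested. Clec4d was at 124 ± 34.8 CPM (SD, n = 3) against 369 CPM, a log2 fold change of −1.57 ± 0.53 (adjusted p = 0.10), and all 3 OE-MLKL values lay below OE-Vector 1. Clec4d passed without OE-MLKL 3 and not without OE-MLKL 1 or OE-MLKL 2. The share of all genes that passed in those fits is not given. Mrc1 was 0.97 ± 0.58 higher (adjusted p = 0.905), a direction that turned under the stricter gate (−0.42).

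**Figure D4:**
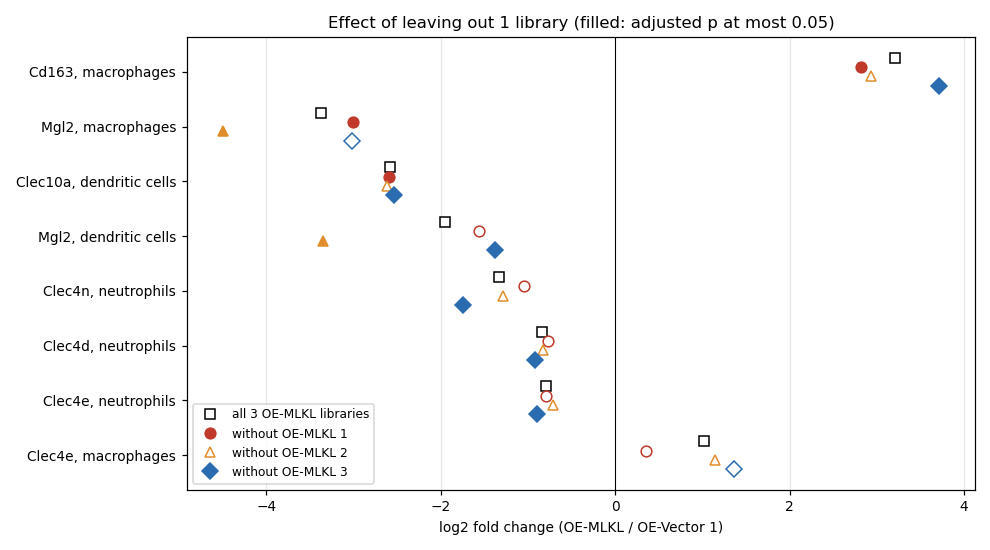
Log2 fold changes of 8 gene and class pairs with all 3 libraries labelled OE-MLKL and without each in turn; filled points have an adjusted p of at most 0.05. The filled point of Clec10a in dendritic cells without OE-MLKL 3 is not counted, since Clec10a entered that test only through OE-Vector 1. All 8 kept their sign and none passed with all 3 libraries. Cd163 in macrophages passed without OE-MLKL 1 or 3, and Clec4n, Clec4d and Clec4e in neutrophils passed without OE-MLKL 3. Fits without a library leave 1 residual degree of freedom.

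Whether the difference between groups itself differed between classes was tested as an interaction with the macrophages as reference. Of the 9 receptors 0 passed for monocytes (0.314% of 13378 genes), 0 for dendritic cells (0.0299%) and 0 for neutrophils (0.0822%). At an unadjusted p below 0.05 there were 2, 4 and 1, and DESeq2 called 0 in each. Clec10a in dendritic cells was the nearest, with a difference of −2.93 ± 0.61 from macrophages on the log2 scale (adjusted p = 0.080), followed by Mgl2 in monocytes (2.75 ± 0.70, adjusted p = 0.084), which rested on 6, 1, 1 and 2 monocytes with a Mgl2 UMI and turned to −4.88 under the stricter gate. For Clec4e in neutrophils the difference was −1.59 ± 0.55 (adjusted p = 0.40). The Clec10a interaction passed without OE-MLKL 1 and not without OE-MLKL 2. The share of all genes that passed in those fits is not given, so the pass is not read as a result about Clec10a. Without OE-MLKL 3 its dendritic cell part rests on 89, 3 and 4 UMIs, and no call is given.

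Genes of the same pathways were compared as 5 lists, namely other myeloid C-type lectins, other scavenger receptors, signalling of lectin receptors, regulators of alternative activation, and ligands and partners. Between the groups, with all libraries, no gene of the lists passed in macrophages, dendritic cells or neutrophils. Some did without OE-MLKL 1 or OE-MLKL 3, most of them in neutrophils without OE-MLKL 3, where many other genes passed too. Those calls are not counted here. In macrophages 13 of the 14 listed lectins were tested, with a median log2 fold change of 0.16 beside 0.04 over all genes, and 12 of 13 scavenger receptors, with a median of −0.05. The 12 signalling genes had a median of −0.10, the 10 regulators −0.01 and the 4 ligands and partners 0.12. In monocytes, where 2.48% of all genes passed, 1 of 6 regulators and 1 of 3 ligands and partners fell. They were Maf, a transcription factor of resident macrophages (−2.35 ± 0.54, adjusted p = 9.96e-04), and Hmox1, the haem-degrading enzyme downstream of Cd163 (−2.90 ± 0.55, adjusted p = 2.03e-05), on 241, 3, 13 and 2 UMIs. The monocyte markers were lower in the same libraries, as given above, and their part was not tested. In the interactions with macrophages 1 of 12 scavenger receptors passed in dendritic cells, namely Cd36 (3.39 ± 0.43, adjusted p = 8.59e-05), and 1 of 4 ligands and partners in monocytes, namely Hp (−2.31 ± 0.50, adjusted p = 0.034), beside 0.0299% and 0.314% of all genes. Cd36 in dendritic cells was at a mean of 111 CPM in the OE-MLKL libraries against 65.7 in OE-Vector 1. That is a smaller difference than the interaction, which also takes in the macrophage values. Hp in monocytes was at 257, 467, 227 and 69.5 CPM, on 140, 37, 27 and 7 UMIs, so the OE-MLKL values lay on both sides of OE-Vector 1. In macrophages Hp was at 7.13, 50.8, 32.9 and 14.0 CPM, higher in each OE-MLKL library. Neutrophils, which held most Hp, also held more of it in the OE-MLKL libraries, and the part of neutrophil RNA in the macrophage values was not tested. No listed gene passed in the neutrophil interaction.

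The lists were compared between classes too. Between macrophages and neutrophils, where 69.7% of all genes passed, 10 of 11 lectins tested passed, 6 higher in macrophages and 4 lower. The log2 difference was 3.91 ± 0.30 for Clec4a1, 3.82 ± 0.33 for Cd93 and −4.30 ± 0.37 for Clec1a. Of 11 scavenger receptors 10 passed, 6 higher, with Cxcl16 at 4.66 ± 0.32, Stab1, an endocytic receptor of resident macrophages, at 3.48 ± 0.18 and the fatty acid receptor Cd36 at 3.29 ± 0.48. Of 12 signalling genes 6 passed, all lower in macrophages, led by the kinase Syk (−1.34 ± 0.17), the phosphatase Ptpn6 (−1.16 ± 0.19) and the Card9 partner Bcl10 (−1.04 ± 0.16). Of 10 regulators 9 passed, 7 higher, with Maf at 3.73 ± 0.36. Clec4b1, Scara5, Nr1h3 and Pparg reached the filter only through the class in which they were higher, and without them the counts were 9 lectins, 9 scavenger receptors and 7 regulators. Hp, which encodes haptoglobin, the plasma partner of haemoglobin for Cd163, was at 449, 1485, 1674 and 832 CPM in neutrophils and differed by −5.72 ± 0.34 in macrophages on the log2 scale. Hmox1 was at 524, 559, 261 and 408 CPM in macrophages and 2.84 ± 0.33 higher than in neutrophils. These 2 were the ones that passed of the 4 ligands and partners.

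Between macrophages and dendritic cells, where 35.9% of all genes passed, 8 of 11 lectins passed, 6 higher in macrophages, and 7 of 11 scavenger receptors, 6 higher. Stab1 was 4.70 ± 0.22 and Lrp1, a lipoprotein receptor, 3.84 ± 0.25 higher. Of 12 signalling genes 6 passed, 5 higher, with the adaptor Fcer1g at 3.29 ± 0.19 and the protease Malt1 at −1.91 ± 0.27. Fcer1g itself was abundant in macrophages, at 3145, 2172, 2295 and 2495 CPM. Of the 10 regulators 7 passed, or 5, all higher in macrophages, without Nr1h3 and Irf4, which reached the filter only through the class in which they were higher. Lgals9, which encodes galectin-9, was 3.01 ± 0.30 and Hmox1 4.64 ± 0.44 higher in macrophages, the 2 that passed of 4 ligands and partners.

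Between macrophages and monocytes, where 10.7% of all genes passed, 1 of 11 lectins, 5 of 11 scavenger receptors, 2 of 12 signalling genes, 2 of 10 regulators and 2 of 4 ligands and partners did. The 5 scavenger receptors were all higher in macrophages, led by Stab1 (3.98 ± 0.24), Cxcl16 (1.79 ± 0.32) and Cd68 (1.33 ± 0.26), and Hp (−3.45 ± 0.35) and Malt1 (−2.24 ± 0.29) were lower. Between monocytes and dendritic cells (18.4% of all genes) the counts in the same order were 8, 6, 4, 3 and 3, with Clec4a3 (5.16 ± 0.52), the lipopolysaccharide co-receptor Cd14 (3.72 ± 0.30) and Fcer1g (2.79 ± 0.19) higher in monocytes. Between monocytes and neutrophils (31.9%) they were 7, 8 (without Scara5, for the same reason), 6, 6 and 2, with Clec4a3 (3.81 ± 0.38) and the transcription factor Klf4 (2.59 ± 0.25) higher and Syk (−1.47 ± 0.21) lower in monocytes. Between dendritic cells and neutrophils (60.7%) they were 7, 8, 9, 5 (without Irf4) and 3. Cd36 (5.58 ± 0.53) and Ly75, the endocytic lectin DEC-205 (2.49 ± 0.22), were higher in dendritic cells, and Cd14 (−5.50 ± 0.29), Clec5a (−4.63 ± 0.47), Fcer1g (−3.11 ± 0.19) and Syk (−2.37 ± 0.20) were lower.

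Likeness of pattern was measured as Pearson's r of log2(CPM + 1) over the 16 sums of class and library, which share libraries and depth, among 8333 genes. Mrc1 and Msr1 were the most alike of the receptors (r = 0.941), followed by Clec4d and Clec4e (0.918) and by Clec4n and Clec4d (0.798), and Clec10a and Mgl2 gave 0.520. Genes like Mrc1 included Trem2 (0.975), which is among the markers that chose macrophages, and Lamp1 (0.969). Those nearest to Clec4e were Pygl (0.960), 1600014C10Rik and Junb, and those nearest to Clec4d were Msrb1 (0.967), Cebpb and Tyrobp. Clec4n was most like Sirpa (0.955), Clec4a2 and Tnfrsf1b, and Msr1 most like Clec4a3 (0.971), Ms4a6d and Adam15. Cd163 was most like Slc17a5 (0.887), Apoe, itself a macrophage marker of the gate, and Timp2, Marco most like Etv1 (0.916), Col14a1 and Rasa1, and Clec10a most like Enox2 (0.884), Sept9 and Lrrc59. Mgl2 was nearest to Cct8 (0.958), Ass1 and Hspd1.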

How the data were processed

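The libraries were made from dissociated tumours with droplet-based 3′ single-cell chemistry, and the deposited values are raw UMI counts for every gene in every barcode, without a cell filter or normalisation, on mm10. Cell Ranger 7.1.0 stands in the file headers and 2.1.1 in the submitters' processing notes, and the methods of the study name another version. The sources used here do not settle whether intronic reads were included.

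Cells had at least 500 UMIs, more than 200 genes, under 10% mitochondrial and at most 5% haemoglobin UMIs, and the highest doublet scores were removed at 0.8% per 1000 cells. Macrophages and neutrophils needed 3 distinct markers and 100 marker UMIs per 10000, monocytes 3 markers and 15 with a UMI of Ly6c2 or Ccr2, and dendritic cells 3 markers and 10. Cells with 2 or more lymphoid or mast cell markers at 5 per 10000, or epithelial, stromal or endothelial markers at 10 per 10000, or passing 2 gates, were left out. The cut-offs were set after the data had been seen. A stricter gate asked for 4 markers and 200, 25, 15 and 200 per 10000 for macrophages, monocytes, dendritic cells and neutrophils.

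For each class, the counts of a library's cells were added up, because cells of 1 tumour are not replicates, and fitted across all genes with edgeR 4.0.16 (R 4.3.3; TMM, filterByExpr, quasi-likelihood test, Benjamini-Hochberg at 0.05). Class pairs had a term for the library. A call is not used where a gene reached the filter (10 counts at the median depth) only through the group in which it was higher, a check added after the data had been seen. It was run for the group and class comparisons of the main fit and for group comparisons without each OE-MLKL library. The interactions and the other alternatives were not checked in this way. DESeq2 1.42.0, other scalings, filters and gates, and leaving out each library were alternatives. The tests were tried on simulated data. A fold is given only above 3 UMIs in each group and, in the group and class comparisons, at 10 CPM in at least 1 group, and for an interaction only at an unadjusted p below 0.05, a rule set after the data had been seen. Intervals and floors cover counting error only.

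The receptors and lists were chosen with earlier results of these data known. All receptors were described in each class, with the 3 genes most like each (at a mean of at least 10 CPM) and examples from up to 3 genes per list and contrast with the largest fold among those past the threshold. One gene is not reported here.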

Additional observations from a re-analysis of the deposited data

Results flagged for a closer look

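Clec4e was set aside because its OE-MLKL values lay on opposite sides of OE-Vector 1 in macrophages and neutrophils, although neither difference passed the test. In macrophages the 3 libraries labelled OE-MLKL had a mean of 71.4 CPM (35.1 to 120), all above the 33.9 CPM of OE-Vector 1. In neutrophils their mean was 683 CPM (597 to 802), all below the 1021 CPM of OE-Vector 1. The interaction did not pass with all libraries (adjusted p = 0.40, edgeR quasi-likelihood test), nor without OE-MLKL 1 (−1.07 on the log2 scale, adjusted p = 0.45) or OE-MLKL 2 (−1.52, adjusted p = 0.77). Without OE-MLKL 3 the interaction was −2.20 and passed. The macrophage value of that library lies at that of OE-Vector 1, so that this choice favours a difference. The share of all genes that passed there is not given, so the pass is not read as a result about Clec4e. The lowest OE-MLKL value in macrophages, that of OE-MLKL 3, had an exact Poisson interval that overlapped that of OE-Vector 1, and free RNA carried Clec4e at 170 CPM in OE-Vector 1 and 160 in OE-MLKL 3 against 69.8 and 73.4 in the others, a part that was not tested.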

How the results depend on the processing

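With 1 OE-Vector library the group comparisons rest on a lone sample, and monocytes and dendritic cells had few cells. No paired analysis was possible because only replicate number 1 had a matrix in both groups. Library size alone in place of TMM moved the median log2 fold change of all genes in neutrophils from 0.05 to 0.26 and turned no receptor.

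Of the class results 491 kept their direction and side of the threshold, 12 passed newly, 8 no longer passed and 5 reversed. Of the group results the numbers were 232, 22, 0 and 6, and of the interactions 64, 12, 0 and 1. Receptors called between groups in macrophages went from 0 to 1 with DESeq2 and to 1 to 3 without a library. In dendritic cells they went from 0 to 1 with DESeq2 size factors, library size alone, doublets kept or shared barcodes removed, to 2 with no filter or the stricter gate, and to 1 to 2 without a library. Leaving out a library gave 0 to 1 in monocytes and 0 to 4 in neutrophils, the fourth being Mgl2, which entered that test only through OE-Vector 1, as did 1 of the 2 in dendritic cells without OE-MLKL 3. Calls of Clec10a in dendritic cells from fits that keep all 4 libraries are not used, since Clec10a reached the low-count filter there only through OE-Vector 1. Between macrophages and monocytes 3 passed in place of 5 without OE-Vector 1. Interactions called rose from 0 to 1 for monocytes, dendritic cells and neutrophils with no filter. For dendritic cells they also did so with library size alone, the stricter gate or shared barcodes removed. The share of all genes that passed in these alternatives is not given, and calls from interaction fits without a library are not counted.

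The group difference reversed for Clec10a in macrophages without OE-MLKL 2 (−0.086, up to 1.17 without another library), and in monocytes for Mrc1 (−0.42) and Clec4n (−0.43) under the stricter gate, for Clec4n (−0.12) and Clec4e (0.11) with doublets kept and for Clec4n without OE-MLKL 1 (−0.088, up to 0.67 without another library). Macrophages against monocytes reversed for Clec10a without OE-MLKL 2 (−0.24, up to 1.01 without another library), Mgl2 under the stricter gate (2.61) and Msr1 with doublets kept (−0.18). Macrophages against dendritic cells reversed for Clec10a with DESeq2 (0.0092) and without OE-Vector 1 (0.72, down to −0.98 without another library), and the monocyte interaction of Mgl2 under the stricter gate (−4.88). The cause of these reversals was not tested.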

Other observations

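In the macrophages with neither an Arg1 nor a Cx3cr1 UMI, Clec10a was at 153 CPM in OE-Vector 1 and at 28.1, 194 and 174 CPM in OE-MLKL 1, 2 and 3, and Cd163 at 46.9, 169, 230 and 149 CPM. The median depth of these cells was 692 UMIs in OE-MLKL 3, 2351.5 in OE-Vector 1, 3603.5 in OE-MLKL 2 and 3566 in OE-MLKL 1, and they numbered 149, 70, 158 and 909. In each of the 4 libraries this subset held more Cd163 than the macrophages as a whole (9.13, 126, 122 and 16.1 CPM), on 11 UMIs in OE-Vector 1.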
